A study of Mus musculus with 42 samples.

Results

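Ube3a, Ndn and Magel2 are 3 protein coding genes of the Prader-Willi region on mouse chromosome 7, and their expression was followed across 4 hypothalamic nuclei in fed and fasted mice. They were chosen by symbol, through the Ensembl identifiers of the table, and all 3 were present among the 37907 genes of the table. The mice were wild-type C57/BL6 males, all adult, with no transgene or deletion in any group. Fed mice had food ad libitum, and fasted mice had been without food for 24 hours when the brain was taken. The arcuate nucleus (ARC), ventromedial hypothalamus (VMH), dorsomedial hypothalamus (DMH) and paraventricular nucleus (PVN) were cut from stained frozen sections by laser capture, and the RNA was amplified and sequenced as single-end reads of 50 bases. The 42 libraries comprised 5 fed and 5 fasted ARC libraries, 6 fed and 6 fasted VMH libraries, 5 fed and 4 fasted DMH libraries, and 6 fed and 5 fasted PVN libraries. Each nucleus holds several kinds of neuron together with glia and vessels, so fewer cells of a type and less RNA per cell cannot be told apart.

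The region is imprinted, meaning that some of its genes are read from the copy of 1 parent. Ndn and Magel2 are read from the paternal chromosome, and Ube3a is read mainly from the maternal chromosome in neurons, where a long antisense transcript runs across its paternal copy. Loss of the paternal genes of the region gives Prader-Willi syndrome, with overeating and obesity, and loss of maternal UBE3A gives Angelman syndrome. From patient microdeletions, the study's paper proposes a minimal region for Prader-Willi syndrome around SNORD116 and neighbouring noncoding RNAs. It names neither Ndn nor Magel2 in that region. Ndn encodes necdin and Magel2 encodes a related protein, both of the MAGE family, whose members act beside ubiquitin ligases. Magel2 works with the ligase TRIM27 in the recycling of membrane proteins from endosomes, and Ube3a is itself a ubiquitin ligase. The values were totals per gene, so they do not separate the parental copies.

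In GRCm38, Ndn lies on the plus strand of chromosome 7 from 62346569 to 62350262 and consists of 1 exon. Magel2 lies 26.7 kb further on, from 62377010 to 62381640, also on the plus strand and also with 1 exon. Ube3a lies on the same strand from 59228750 to 59311536, in 16 exon blocks. No exon of another annotated gene overlapped Ndn or Magel2. Of the exon length of Ube3a, 27.3% overlapped antisense genes, among them Snhg14, the host of the antisense transcript. The library kit did not mark strand, so reads from Ube3a and from its antisense partners cannot be told apart in that stretch, and Ube3a values carry this uncertainty.

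Values were RPKM, which are read counts scaled to the length of the gene and to the total of the library. Judged from recurring lowest values, 1.45 to 14.5 reads had been added to each gene before scaling, depending on the library. Low values therefore lie near that of a gene with no reads. The estimated depth ran from 1.32 M to 13.2 M reads per library, with a mean of 4.56 M. It was worked out from the lowest values and gene lengths. It is not the sequenced total, for which the study reports a higher average per sample. At the estimated depth a library held 616 to 14000 reads of Ndn, 776 to 8090 of Ube3a and 122 to 1110 of Magel2. Magel2 thus had the fewest reads of the 3. The markers of each nucleus were highest in libraries of that nucleus. The summed ARC markers lay between 1206 and 2756 RPKM in the ARC and at or below 128 RPKM elsewhere, and the summed PVN markers lay between 4473 and 8533 RPKM in the PVN and at or below 168 RPKM elsewhere. Libraries fell into 3 sets of 10, 16 and 16 that shared their lowest values gene by gene, and the fasted DMH had no library in the first of them. Each other group had 1 or 2 libraries in that set, and every group had 2 in each of the other sets, so differences within sets rest on few libraries.

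Ndn was among the most abundant messages of every nucleus. Its mean over libraries ranked 48th of 33579 tested genes in the ARC, 71st in the PVN, 90th in the DMH and 161st in the VMH. In fed ARC libraries it measured 297, 302, 310.5, 355 and 379 RPKM, and in fed DMH libraries 196, 218, 239, 272 and 304 RPKM. The 6 fed VMH libraries had a lowest value of 127, a median of 164 and a highest value of 213 RPKM, and the 6 fed PVN libraries had 246, 296 and 332 RPKM. All fed VMH libraries lay below all fed ARC and all fed PVN libraries, while the DMH range overlapped the other 3. Complete separation was shown by 4.41% of all tested genes between ARC and VMH, by 4.26% between VMH and PVN, and by 2.67% to 3.15% in the other pairs (2.92% for ARC and PVN).

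The order of Ndn in fed mice was ARC, PVN, DMH, VMH, with means of 329 ± 36.4 (SD, n = 5), 293 ± 27.6 (n = 6), 246 ± 43.0 (n = 5) and 169 ± 37.9 RPKM (n = 6). The 4 nuclei differed by limma's F test on log2(RPKM + 1), with an adjusted p of 2.39e-06 after Benjamini-Hochberg adjustment over all tested genes. A gene was called where this adjusted p was under 0.1, and 12.4% of all tested genes were called in the same test. The ARC exceeded the VMH by 0.98 ± 0.13 (SE) on the log2 scale, which is a 1.94-fold ratio of means, with a limma adjusted p of 1.6e-06, and 7.9% of all genes were called in that pair. The PVN exceeded the VMH by 0.81 ± 0.13 (9.84% of all genes were called in that pair), and the DMH exceeded it by 0.55 ± 0.13 (5.24%), with limma adjusted p-values of 1.49e-05 and 0.0092. The neighbours ARC and PVN, with a difference of 0.16 and a 95% interval from -0.11 to 0.43, and DMH and PVN, with a limma adjusted p of 0.437 in a pair where 3.42% of genes were called, did not differ beyond their spread. The difference of 0.43 between ARC and DMH had an adjusted p of 0.122 and was not called, in a pair where 2.79% of all genes were. All 4 nuclei were cut from each brain and the labels do not tie libraries to mice, so these comparisons treated libraries as independent.

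Fasted libraries gave the same lowest and highest nuclei. Ndn measured 356, 375, 378, 430.5 and 472 RPKM in the ARC, and the 6 VMH libraries had a lowest value of 126, a median of 185 and a highest value of 219 RPKM. The DMH measured 234, 237, 241 and 287 RPKM, and the PVN measured 235, 254, 295, 320.2 and 324 RPKM. All ARC libraries lay above those of the other 3 nuclei and all VMH libraries lay below them, which left an overlap only between DMH and PVN. Such a separation was shown by 4.67%, 4.28% and 3.57% of all tested genes for the ARC against VMH, DMH and PVN, and by 3.79% and 5.02% for the VMH against DMH and PVN.

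In fasted mice the ARC exceeded the VMH by 1.18 ± 0.13 on the log2 scale, a 2.26-fold ratio of means, with a limma adjusted p of 3.51e-08 (8.91% of all genes were called). It exceeded the DMH by 0.68 ± 0.15 (limma adjusted p of 0.00543, with 3.21% of genes called) and the PVN by 0.50 ± 0.14 (0.0373, with 4.19% called). The VMH was lower than the DMH by 0.50 ± 0.14 (0.0428, with 3.94% called) and lower than the PVN by 0.69 ± 0.13 (0.000401, with 9.24% called). The F test over the 4 nuclei gave an adjusted p of 2.73e-07, and 11.9% of all genes were called in it. Within the sets of libraries the ARC exceeded the VMH by 0.72, 0.80 and 1.34 in fed mice and by 1.5, 1.06 and 1.10 in fasted mice.

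**Figure D1:**
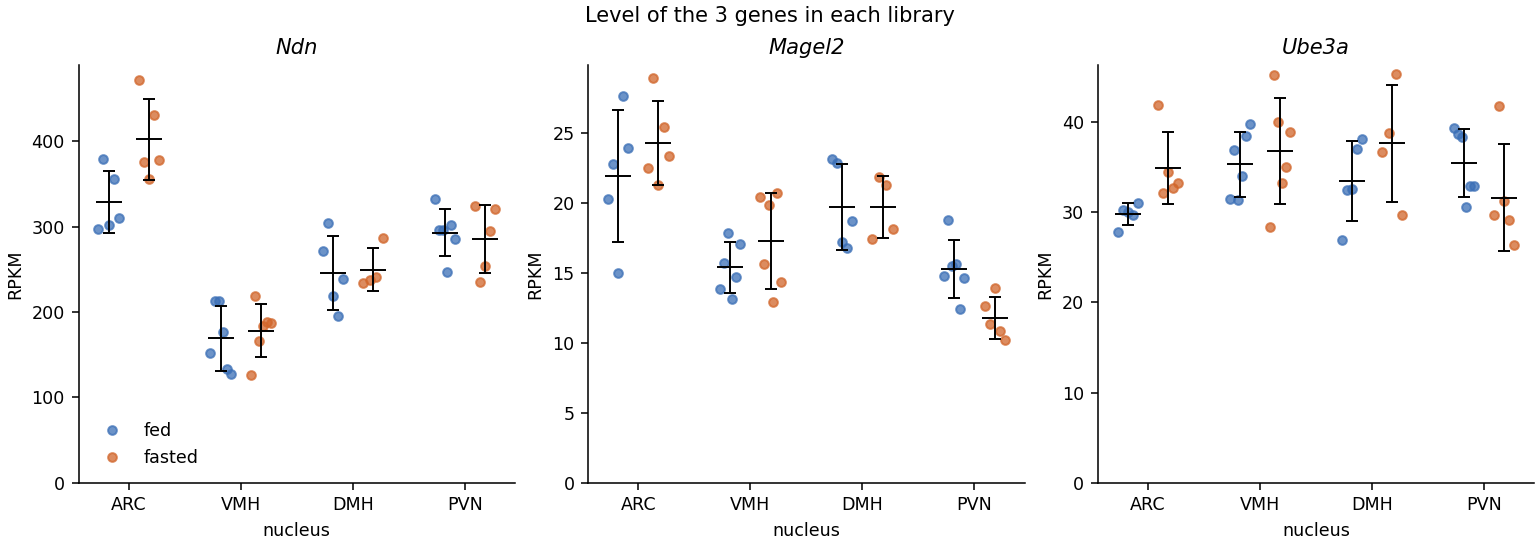
RPKM of Ndn, Magel2 and Ube3a (vertical axes, starting at 0) in each of the 42 libraries, by nucleus and nutritional state. Points are libraries and bars are the mean with 1 SD. Ndn lay at 126 to 219 RPKM in the VMH against 297 to 472 RPKM in the ARC, and Magel2 was lowest in the fasted PVN.

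Ribosomal protein genes and neuron markers moved with the nuclei in the same libraries. The mean log2(RPKM + 1) of 76 ribosomal protein genes lay between 6.38 and 6.64 in the ARC and between 5.76 and 6.10 in the VMH. Of the 76, 66 were themselves called between nuclei in fed mice, beside 12.4% of all tested genes. They were not compared with genes of like level. Over the 42 libraries, Ndn and this mean had a Pearson correlation of 0.88 and a Spearman correlation of 0.915, and of 0.369 and 0.369 once each group's mean was taken out. The libraries share nuclei and brains, so these are descriptions. With the ribosomal mean as a covariate, the Ndn differences between ARC and VMH were 0.51 ± 0.24 in fed and 0.71 ± 0.24 in fasted mice, and the call between nuclei was lost, with limma adjusted p-values of 0.463 and 0.304. This covariate was chosen after the values of Ndn were seen.

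The 10 neuron markers went the other way. Their summed level lay between 1586 and 2177 RPKM in the VMH and between 994 and 1164 RPKM in the ARC, and their mean log2 level had a Pearson correlation of -0.815 with Ndn over the 42 libraries and of 0.126 within groups. With the neuron mean as a covariate, Ndn kept its call between nuclei in fed mice, with a limma adjusted p of 0.0168, and its fed difference between ARC and VMH was 1.19 ± 0.32, with a limma adjusted p of 0.123 for that pair. Oligodendrocyte markers (7 genes) summed to 204 to 366 RPKM in the VMH and to 94.6 to 185 RPKM in the ARC, and astrocyte markers (7 genes) to 445 to 682 and 355 to 427 RPKM. The part of these gene groups in the Ndn difference was not tested.

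**Figure D2:**
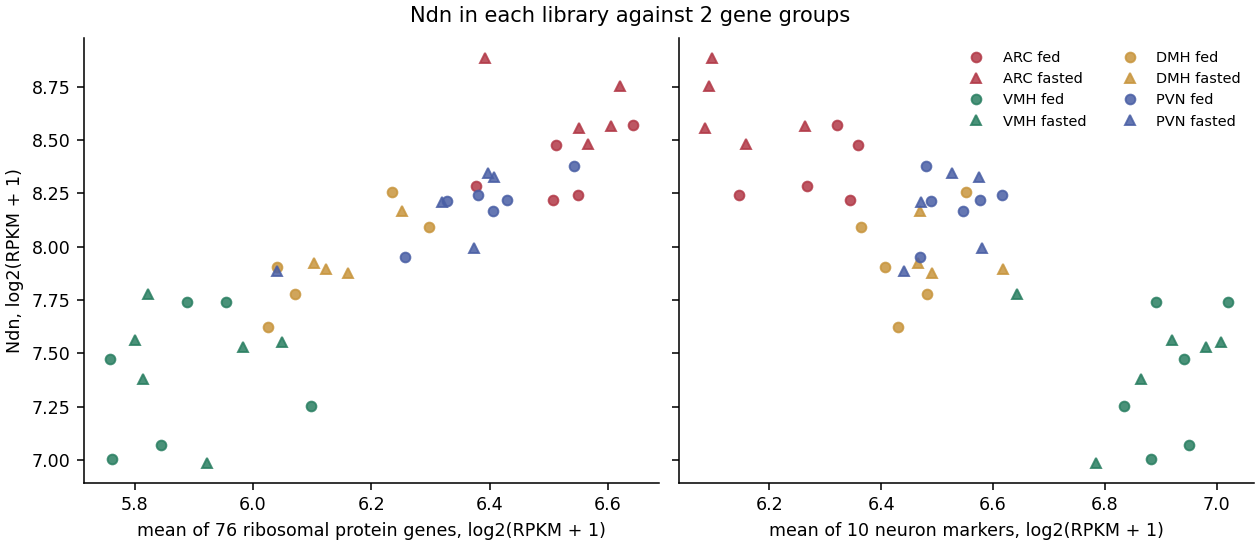
Ndn in each of the 42 libraries, as log2(RPKM + 1) on the vertical axis, against the mean of 76 ribosomal protein genes (left) and of 10 neuron markers (right) on the same scale. Circles are fed and triangles are fasted libraries, coloured by nucleus. VMH libraries sit low for Ndn, low for ribosomal protein genes and high for neuron markers.

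Magel2 was expressed at a small share of the Ndn level and had another order. It measured 14.9, 20.3, 22.7, 23.9 and 27.6 RPKM in fed ARC libraries and 16.8, 17.2, 18.7, 22.8 and 23.1 RPKM in fed DMH libraries. The fed VMH had a lowest value of 13.1, a median of 15.2 and a highest value of 17.8 RPKM, and the fed PVN had 12.4, 15.1 and 18.8 RPKM. The ARC and DMH values were the higher ones, and the ranges of all 4 nuclei overlapped in fed mice.

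In fed mice the order of Magel2 was ARC, DMH, VMH, PVN, with means of 21.9 ± 4.71, 19.7 ± 3.06, 15.4 ± 1.85 and 15.3 ± 2.06 RPKM. The 4 nuclei differed, with an adjusted p of 0.0129 by limma's F test, which calls the 12.4% of genes given above. The ARC exceeded the VMH by 0.46 ± 0.13 and the PVN by 0.47 ± 0.13 on the log2 scale, with limma adjusted p-values of 0.0196 and 0.0286, in pairs where 7.9% and 4.13% of all genes were called. VMH and PVN, the lowest neighbours, differed by 0.01 with a 95% interval from -0.24 to 0.26. ARC and DMH differed by 0.13 with an interval from -0.14 to 0.40, and the DMH exceeded the VMH by 0.33 without a call (limma adjusted p of 0.181). With the neuron mean as a covariate the F test lost its call in fed mice, with a limma adjusted p of 0.225, while the differences were 0.55 ± 0.31 between ARC and VMH and 0.51 ± 0.17 between ARC and PVN, no smaller than without it but with larger errors. With the ribosomal mean the F test kept its call (0.0442), as did ARC and PVN (0.0387), and ARC and VMH lost theirs, at 0.53 ± 0.25 with 0.428.

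Fasted libraries kept the ARC highest and the PVN lowest. Magel2 measured 21.3, 22.4, 23.3, 25.4 and 28.9 RPKM in fasted ARC libraries and 17.4, 18.1, 21.3 and 21.8 RPKM in fasted DMH libraries. The fasted VMH had a lowest value of 12.9, a median of 17.7 and a highest value of 20.7 RPKM, and the fasted PVN measured 10.2, 10.8, 11.3, 12.6 and 13.9 RPKM. All fasted PVN libraries lay below all ARC and all DMH libraries, and all VMH libraries lay below all ARC libraries, separations shown by 3.57%, 4.43% and 4.67% of all tested genes.

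The fasted ARC exceeded the fasted PVN by 0.98 ± 0.13 on the log2 scale, a 2.06-fold ratio of means, with a limma adjusted p of 3.37e-06. The DMH exceeded the PVN by 0.69 ± 0.14 (0.00293, with 3% of all genes called in that pair), the VMH exceeded the PVN by 0.50 ± 0.13 (0.00886), and the ARC exceeded the VMH by 0.48 ± 0.13 (0.0138). The F test over the 4 nuclei gave an adjusted p of 1.03e-05. In the 3 sets of libraries the ARC exceeded the PVN by 0.78, 0.93 and 1.14. With the neuron mean as a covariate the fasted ARC exceeded the fasted PVN by 1.03 ± 0.22 (limma adjusted p of 0.00693), and with the ribosomal mean by 1.01 ± 0.16 (5.22e-05). The DMH and PVN pair also kept its call in both fits. The other pairs lost theirs: ARC and VMH differed by 0.58 ± 0.35 and 0.55 ± 0.25 (limma adjusted p-values of 0.757 and 0.355), and VMH and PVN by 0.46 ± 0.20 and 0.46 ± 0.19 (0.291 and 0.236).

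Ndn and Magel2 are close neighbours read from the same parental copy, and their ratio was not constant. Ndn was 15.5 ± 3.06 times the Magel2 level in the fed ARC, 11.1 ± 2.44 times in the VMH, 12.4 ± 0.712 times in the DMH and 19.5 ± 3.46 times in the PVN. In fasted mice the ratio was 16.8 ± 2.86, 10.8 ± 3.40, 12.9 ± 2.26 and 24.7 ± 5.21. The PVN combined a high Ndn level with the lowest Magel2 level, and all PVN libraries had ratios of at least 15.7, above every VMH library, whose ratios reached 14.2. Both values are per length of gene, so the ratio compares levels between genes, and no test was made of it. Over the 42 libraries Ndn and Magel2 had a Pearson correlation of 0.316, and of 0.0484 after each group's mean was taken out.

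**Figure D3:**
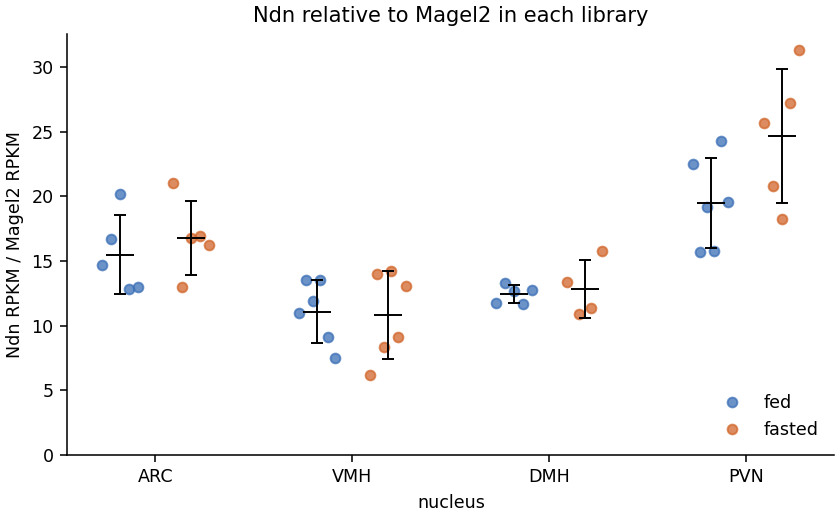
Ratio of Ndn RPKM to Magel2 RPKM in each library (vertical axis, starting at 0), by nucleus, for fed and fasted mice. Points are libraries and bars are the mean with 1 SD. The highest ratios were those of the PVN, with means of 19.5 fed and 24.7 fasted.

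Ube3a was not called between nuclei in either state. Its group means lay between 29.8 and 37.6 RPKM, and its libraries between 26.3 and 45.3 RPKM. Limma's F test between nuclei gave adjusted p-values of 0.459 in fed and 0.51 in fasted mice, and none of the 12 pairwise differences was called. The 2 largest fed differences were those of the ARC below the PVN by 0.24 ± 0.11 and below the VMH by 0.23 ± 0.11, with limma adjusted p-values of 0.384 and 0.282. With the ribosomal mean as a covariate the ARC stood above the fed VMH, by 0.34 ± 0.18 (0.523), and the fasted ARC stood above the fasted PVN by 0.37 ± 0.11, a pair that was called in that fit (0.0735, against 0.15 and 0.767 without the covariate). With the neuron mean none of the 12 pairs was called. All fed ARC libraries nevertheless lay below all fed VMH libraries, as 4.41% of all genes did in 1 direction or the other.

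Fasting was then compared with feeding within each nucleus, by limma for all genes and by a two-sided exact permutation test for each of the 3. None of the 12 changes passed limma's adjusted threshold. The share of all tested genes that passed it was 0.0566% for the ARC, 0.131% for the VMH, 0.0238% for the DMH and 0.0715% for the PVN. At an unadjusted limma p under 0.05 stood 2 of the 12, Ndn in the ARC and Magel2 in the PVN, against 7.5% and 5.53% of all genes there. In the VMH and DMH none of the 3 genes reached that level, against 7.31% and 6.48% of all genes.

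In the ARC the fed Ube3a values were 27.8, 29.7, 30.1, 30.2 and 31.1 RPKM and the fasted values 32.2, 32.6, 33.3, 34.5 and 41.9 RPKM. All fasted libraries lay above all fed ones, although the gap between the groups was narrow and the highest value stood apart. Fed and fasted libraries separated in this way, in either direction, for 0.742% of all tested genes in the ARC. The change was 0.22 ± 0.12 on the log2 scale, a 1.17-fold ratio of means. The exact permutation test gave p = 0.00794, the smallest p that 5 libraries against 5 allow, and limma, which pools the spread of all nuclei, gave an adjusted p of 0.721. Without the library at 41.9 RPKM the change was 0.15 with a limma adjusted p of 1. Within the 3 sets the change was 0.58 (1 library of each state, the fasted one at 41.9 RPKM), 0.14 and 0.11 (2 of each).

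Ndn in the ARC had a fed mean of 329 and a fasted mean of 402 ± 47.7 RPKM (n = 5). The 2 highest fasted libraries exceeded all fed libraries and 4 of 5 fed libraries lay below all fasted ones, and the groups overlapped through a single fed library at 379 RPKM. The change was 0.29 ± 0.14 on the log2 scale, a 1.22-fold ratio, with an exact permutation p of 0.0476 and a limma adjusted p of 0.648. Within the sets it was 0.67 (1 library of each state), 0.11 and 0.28 (2 of each). In the ARC 0 of 10 neuron markers and 0 of 76 ribosomal protein genes passed limma's threshold for fasting, beside 0.0566% of all genes. With so few genes called, these counts do not show that either group was steady. The neuron markers had a median difference of -0.15, with 7 of 10 negative. The ribosomal protein genes had a mean difference of 0.03, with 46 of 76 positive.

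Magel2 in the PVN measured 10.2, 10.8, 11.3, 12.6 and 13.9 RPKM in fasted libraries, against a fed range of 12.4 to 18.8 RPKM. Of the 6 fed libraries, 5 lay above all fasted ones, and 1 fed library at 12.4 RPKM fell within the fasted range. Magel2 differed by -0.35 ± 0.13 on the log2 scale, a 0.771-fold ratio of means, with an exact permutation p of 0.013 and a limma adjusted p of 0.726. The difference within the 3 sets was -0.37 (2 fed and 1 fasted library), -0.29 and -0.33 (2 of each). It was -0.40 to -0.29 as each PVN library was left out in turn. An estimated 163 to 413 reads per library lay behind the PVN values.

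**Figure D4:**
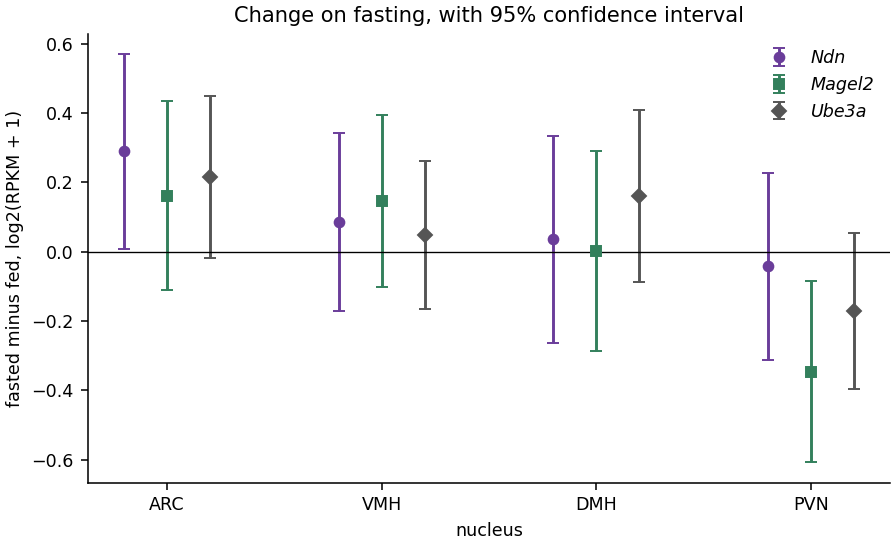
Fasted minus fed difference of Ndn, Magel2 and Ube3a on the log2(RPKM + 1) scale (vertical axis) in each nucleus. Points are limma estimates and bars are 95% confidence intervals, before any adjustment for the number of genes. The intervals of Ndn in the ARC and of Magel2 in the PVN lie to 1 side of 0, and the other 10 include 0.

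The other changes were small against their spread. Magel2 was 21.9 fed and 24.3 ± 3.0 RPKM fasted in the ARC, a difference of 0.16 with a 95% interval from -0.11 to 0.43 and an exact permutation p of 0.381. In the VMH the 3 genes differed by 0.05 to 0.15, with exact permutation p-values of 0.288 to 0.667, and in the DMH by 0.00 to 0.16, with 0.317 to 0.952. In the DMH, Ube3a measured 26.9, 32.5, 32.6, 37.0 and 38.1 RPKM fed and 29.7, 36.7, 38.8 and 45.3 RPKM fasted, and the ranges overlapped widely, where 1.15% of all genes separated. In the PVN, Ndn differed by -0.04 with a 95% interval from -0.31 to 0.23. Ube3a there measured 26.3, 29.2, 29.6, 31.2 and 41.8 RPKM fasted against 30.6 to 39.4 RPKM fed, a difference of -0.17 ± 0.11 with an exact permutation p of 0.177.

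The interaction of fasting and nucleus compared the changes themselves. The response of Magel2 was higher in the ARC than in the PVN by 0.51 ± 0.19 on the log2 scale and higher in the VMH than in the PVN by 0.49 ± 0.18, with unadjusted limma p-values of 0.00981 and 0.00881 and adjusted values of 1 and 0.943, in pairs where 0.00893% and 0.00596% of all genes were called. The response of Ube3a was higher in the ARC than in the PVN by 0.39 ± 0.16 (unadjusted p of 0.0206 by limma), and that of Ndn by 0.33 ± 0.19 (0.0937). The Magel2 response in the DMH exceeded that in the PVN by 0.35 ± 0.19 (0.077, with 0.00298% of genes called). No interaction of the 3 genes was called, in an F test that called 0.00596% of all genes. Before adjustment the F test of Magel2 had a limma p of 0.0292, a level under 0.05 that 4.39% of all genes reached. Over the 3 genes, the ARC differences were positive for 3 of 3 and the PVN differences negative for 3 of 3, but the genes were chosen with this pattern known, so the signs are no independent evidence.

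Other genes of the region set the levels in context. Of 316 genes annotated between Tubgcp5 and Peg12, 259 were in the table, 16 of them protein coding. The gene model Gm38393, whose exons overlap those of Snurf and Snrpn, was as abundant as Ndn, with a mean of 249 RPKM against 266 RPKM. It was called between nuclei in fed and in fasted mice, with limma adjusted p-values of 0.00282 and 6.67e-05, and was highest in the VMH at 293 RPKM fed and 292 RPKM fasted, where Ndn was lowest. Of the other paternally expressed protein coding genes, Mkrn3 and Peg12 stood at 0.474 and 0.559 RPKM and were not tested. Both levels are close to that of a gene with no reads. Of 212 small nucleolar RNA genes in the interval, 159 stayed at the lowest value of their set in every library. Snord64 and Snord107, both within Gm38393, were called neither between nuclei nor for fasting. They are 67 and 70 bases long, with group means of 16.8 to 20.7 and 15.6 to 16.5 RPKM. Such levels are at or near that of a gene of this length with no reads, so these tests could hardly find a change. The genes Snrpn, Snurf, Snhg14, Ipw, Snord115 and Snord116 were not analysed under their own names. Where exons are shared, reads of Snurf and Snrpn may be counted in Gm38393, so its level may include them.

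The neighbours read from both parental copies included Gabra5 and Gabrg3, subunits of the GABA-A receptor, which were called between nuclei in both states. Gabra5 was 119 RPKM in the fed VMH and 14.3 RPKM in the fed PVN, with a limma adjusted p of 3.42e-14. Gabrg3 was highest in the DMH, at 22.2 RPKM in fed mice (3.49e-08). Herc2, which encodes a ubiquitin ligase, and Cyfip1, a regulator of translation and actin, were called in fasted but not in fed mice, with limma adjusted p-values of 0.0134 and 0.0277 in fasted mice. Their interaction F tests had unadjusted limma p-values of 0.334 and 0.126, so no difference between the states was shown. The tests between nuclei called 12.4% of all genes in fed and 11.9% in fasted mice. Nipa1, Nipa2 and Tubgcp5 were not called, nor was Atp10a, which was listed with Ube3a as maternally expressed. The values cannot show which copy of Atp10a is read. None of these genes was called for fasting in any nucleus, beside 0.0238% (DMH) to 0.131% (VMH) of all genes. Atp10a had the largest difference, 0.72 ± 0.36 in the DMH with a limma adjusted p of 0.783.

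**Figure D5:**
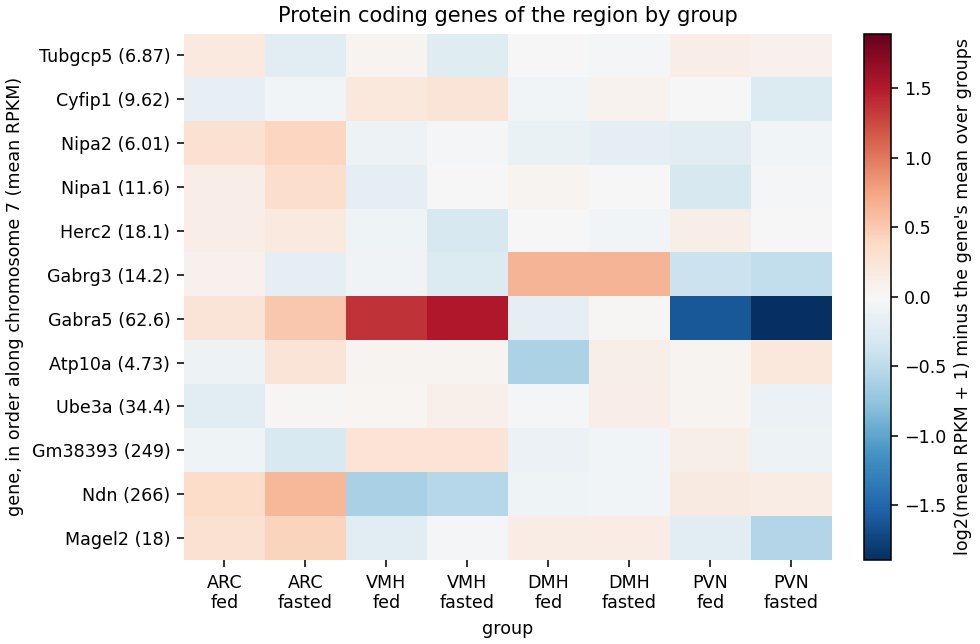
Tested protein coding genes of the region, each in its order along the chromosome with its mean RPKM in brackets, by group. Colour gives log2(mean RPKM + 1) of the group minus the gene's mean over the 8 groups. Ndn and Gabra5 run in opposite directions in the VMH and PVN, and Ube3a is close to its mean throughout.

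Among the other MAGE family genes, Maged1 matched Ndn in level, with a mean of 305 RPKM. The list held 6 of these genes, and all were tested. Of the 6, 3 were called between nuclei in fed mice (Maged1, Maged2 and Mageh1) and 3 in fasted mice (Maged1, Mageh1 and Magee2), beside 12.4% and 11.9% of all genes. Mageh1 was highest in the PVN, at 20.4 RPKM fed and 22.3 RPKM fasted against 9.74 and 8.26 RPKM in the VMH, with limma adjusted p-values of 0.00192 and 0.000118. Maged2 was 19.1 RPKM in the fed PVN and 9.37 RPKM in the fed VMH (0.00608), and Magee2 was 54.5 RPKM in the fasted DMH and 27.8 RPKM in the fasted VMH (0.0225). Maged1 ranged only from 287 to 352 RPKM among fed nuclei (0.00882). None of the 6 was called for fasting, where 0.0238% (DMH) to 0.131% (VMH) of all genes were.

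The list for Magel2 held 13 tested genes. They belong to its TRIM27 ligase, to the WASH complex, which builds actin on endosomes, and to retromer, which returns cargo from them, together with Rnf41 and Usp8, a ubiquitin ligase and a deubiquitinase outside these complexes. Between nuclei, 2 of 13 were called in fed mice (Vps26a and Rnf41) and 1 of 13 in fasted mice (Washc4), near the 12.4% and 11.9% of all genes. Vps26a, a retromer subunit, was 30.7 RPKM in the fed VMH and 18.6 RPKM in the fed PVN, with a limma adjusted p of 0.0154. Usp8 and Vps35, the core of retromer, had the highest means at 46.8 and 32.8 RPKM, and neither was called. None of the 13 was called for fasting, where 0.0238% (DMH) to 0.131% (VMH) of all genes were. At such shares a short list would seldom hold a called gene. The median change of the 13 lay between -0.12 in the VMH and 0.04 in the ARC, beside a median of 0 over all genes in each nucleus.

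Of 11 tested genes whose proteins are reported to bind or act with necdin, 7 were called between nuclei in each state, beside 12.4% of all genes in fed and 11.9% in fasted mice. Those shares include 4747 genes that stayed at the lowest value of their set in every library, and the list was not compared with genes of like level. Dlx2 and Dlx5, homeobox factors of inhibitory neurons, were 4.76 and 10.1 RPKM in the fed ARC and 0.661 and 1.65 RPKM in the fed VMH, with limma adjusted p-values of 2.32e-07 and 0.000343. Nucb2, the precursor of nesfatin, was 76.2 RPKM in the fed PVN and 37.4 RPKM in the fed DMH (0.000112), and Bbs4, a subunit of the BBSome of cilia, was 35.2 RPKM in the fed PVN and 22.5 RPKM in the fed VMH (0.00101). Foxo1, a transcription factor of insulin signalling, was 16.4 RPKM in the fed ARC and 8.51 RPKM in the fed VMH (0.042). Fez1 and Ngfr were the other 2, at 34.6 and 0.38 RPKM in the fed VMH and 22.1 and 3.46 RPKM in the fed DMH, with adjusted p-values of 0.0331 and 0.0122. The Ngfr level in the VMH is close to that of a gene with no reads. None of the 11 genes passed the threshold for fasting, which 0.0238% (DMH) to 0.131% (VMH) of all genes passed. In the ARC, Foxo1 differed by 0.60 ± 0.29 and Nucb2 by 0.44 ± 0.16, with limma adjusted p-values of 0.655 and 0.616.

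For Ube3a, 9 genes of its conjugating enzymes, partners and substrates were tested, and 2 were called between nuclei in fed mice (Arc and Arhgef15, where 12.4% of all genes were) and 1 in fasted mice (Arc, where 11.9% were). Ube2l3, the enzyme that hands ubiquitin to Ube3a, had a mean of 24.8 RPKM and ranged from 23.4 to 26.9 RPKM over the groups. The gene Arc, an immediate early gene of synapses that shares its letters with the nucleus, was 4.71 RPKM in the fed PVN and 1.72 RPKM in the fed arcuate nucleus, with a limma adjusted p of 0.083. None of the 9 was called for fasting, where 0.0238% (DMH) to 0.131% (VMH) of all genes were.

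The genes whose pattern was most like each of the 3 were sought among 11442 tested genes with a symbol and a mean of at least 5 RPKM, by the Pearson correlation of log2(RPKM + 1) over the 42 libraries. For Ndn they included Rpl14 (0.875), Rps27 (0.87) and Rps27rt (0.863), which are ribosomal protein genes or copies of one, and Dlk1 (0.857). Dlk1, a paternally expressed gene of another imprinted region, stood at 145 RPKM in the ARC, 136.6 in the PVN, 95.4 in the DMH and 16.6 in the VMH, the same order as Ndn over a wider range. Rps27 and Rps27rt may share reads, so the pair is uncertain.

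For Magel2 the most alike were Tac2 (0.767), Cox6a2 (0.754), Isl1 (0.739), Bsx (0.707) and Plagl1 (0.706). Tac2, the neurokinin B precursor, stood at 93.1 RPKM in the ARC, 45.5 in the DMH, 4.79 in the VMH and 1.90 in the PVN, the order of Magel2. Isl1 and Bsx, homeobox factors of hypothalamic neurons, had 15.8 and 24.2 RPKM in the ARC against 0.512 and 1.40 RPKM in the PVN. For Ube3a the highest correlations were lower, from 0.618 for Zfp277 to 0.596 for A330044P14Rik, with Gm9864, Gm17131 and Fgd4 between. These values describe likeness over libraries that share nuclei, sets and brains.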

How the data were processed

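The deposited RPKM values were made by the authors from reads mapped to GRCm38 with TopHat (the submitters' notes name TopHat2 2.0.11, CASAVA 1.7 and Cufflinks 2.2.1), after they had left out outlier libraries. The gene model release and any batch adjustment step are not given in the sources used here. The table held no zeros. Of its 37907 genes, 21975 had a lowest value that recurred among libraries in each of 3 sets. The sets were inferred from such shared values because no label gives a batch. In the study's methods, capture and library preparation ran in 3 batches, and whether the sets are those batches was not tested. In log2 values the median over genes of the largest set term was 8.78e-08, so differences between sets had been removed from the deposited values, and the main p-values and the differences within sets take no account of that removal. The fit with library set as a factor does. Depth was estimated from the same values and from gene lengths, and estimated reads carry counting error only.

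Genes with at least 1 RPKM in at least 4 libraries were tested (33579, of which 4747 stayed at the lowest value throughout), with limma 3.58.1 in R 4.3.3 on log2(RPKM + 1), computed here from the deposited values. The fit had 8 group means and an intensity trend, with two-sided tests and Benjamini-Hochberg adjustment over all tested genes. Fold changes on this scale understate the change of low genes. Exact permutation tests (scipy 1.17.1, two-sided) used all arrangements of the libraries of a nucleus. The labels name no mouse for a library, so p-values measure the spread between libraries. No 2 libraries had a correlation above 0.977. The scripts were tested on simulated data. Symbols (35965 identifiers matched), positions and lengths came from the GENCODE annotation of GRCm38.

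Members and gene lists were chosen with earlier results of these data known. Named genes were the 3 genes, listed genes past the threshold, otherwise up to 4 of a list by mean RPKM, and the 5 most correlated genes. Gm38393, Mkrn3, Peg12 and the ribosomal protein genes were named after their values were seen. Alternatives were a pseudocount of 0.1, no filter or one of 5 RPKM, fits within a nucleus or state, median scaling, array weights, covariates, a replicate block and leaving out each library. The library set, the ribosomal mean and leaving out genes at the lowest value were added after the data were seen. Some genes that these rules name are not reported here.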

Additional observations from a re-analysis of the deposited data

Results flagged for a closer look

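In the 24 groups of 4 to 6 libraries formed by 3 genes, 4 nuclei and 2 states, 2 had a library far from the others by Dixon's criterion on log2(RPKM + 1), where chance flags about 1 group in 20. Ube3a in the fasted ARC had a library at 41.9 RPKM whose gap to the next covered 0.734 of the range of its group of 5. Ndn in the fasted DMH had a library at 287 RPKM whose gap covered 0.839 of the range of its group of 4. No interaction between nuclei passed the threshold for the 3 genes.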

How the results depend on the processing

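Magel2 in the PVN, Ndn in the ARC and Ube3a in the ARC kept the direction of their fasting change under all 11 alternatives and with each library left out, and none of the 12 fasting changes passed limma's threshold in any of these fits. The differences of Ndn and Magel2 between nuclei, in fed and in fasted mice, stayed called with each library left out. Ndn lost its call with the ribosomal mean as a covariate, with F = 2.229 in fed and 2.871 in fasted mice. Magel2 in fed mice lost it with the neuron mean (F = 3.619) and with the replicate block within state (F = 5.706, adjusted p = 0.106). The library set as a factor left each of these tests of the 3 genes on its side of the threshold. The causes were not tested.

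Small differences turned sign. Ndn in the DMH was -0.047 with depth as a covariate, and Ndn in the PVN was 0.020 with the ribosomal mean. Magel2 in the DMH was -0.016 with array weights, -0.0061 with the neuron mean and -0.0054 with the replicate block. With 1 library left out, the ranges were -0.012 to 0.118 for Ube3a in the VMH, -0.041 to 0.117 for Ndn in the DMH, -0.049 to 0.060 for Magel2 in the DMH and -0.090 to 0.025 for Ndn in the PVN.

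Counts of genes called for fasting depended on the fit. In the ARC 19 genes became 8 with a pseudocount of 0.1, 0 within the nucleus, 40 with array weights and 11 with the neuron mean. In the VMH 44 became 1 within the nucleus, 16 with array weights, 20 with the neuron mean, 24 with the library set and 17 with the replicate block. In the DMH 8 became 5 with the filter of 5 RPKM, 0 within the nucleus and 56 with array weights, and in the PVN 24 became 3, 141 with array weights and 15 with the ribosomal mean. The interaction had 2 genes, 1 with the pseudocount of 0.1, 1 with the filter of 5 RPKM, 8 with array weights and 0 with the replicate block. Between nuclei, 4172 genes in fed mice became 2310 with the neuron mean and 2703 with the ribosomal mean, and 3993 in fasted mice became 2286 with the neuron mean and 2579 with the replicate block. With 1 library left out, the counts ran from 6 (without fasted ARC replicate 1) to 31 (fasted 2) in the ARC, 16 (fed 4) to 64 (fasted 6) in the VMH, 6 (fed 4) to 89 (fasted 3) in the DMH and 11 (fed 4) to 48 (fasted 5) in the PVN, and from 2 to 7 for the interaction. Same-numbered fed and fasted libraries had correlations of -0.122 to 0.0544 in their deviations, so the numbers were not taken to pair them.

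Magel2 was the limit in depth, with 122 estimated reads in its thinnest library. With groups of 4 to 6 libraries, the widest 95% interval of a fasting change, that of Ndn in the DMH, ran from -0.26 to 0.33.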
